A study of Mus musculus with 4 samples.

Results

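Lhx9-positive neurons are 248 of the 15416 barcodes kept from single-cell libraries of mouse inner ear organoids, and 248 of the 2945 that pass a neuron gate. Members were chosen from their own counts of unique molecular identifiers (UMIs). A barcode had at least 1000 detected genes and at most 15% mitochondrial UMIs, at least 500 CPM (UMIs of the gene per 1000000 UMIs of the cell) of Tubb3 and 200 CPM of Stmn2, under 100 CPM of Otof and under 10000 CPM of Ccer2. It then had at least 2 UMIs of Lhx9, fewer than 3 of Neurod1, none of Otp and fewer than 2 of Slc32a1. These 8 genes set the membership, so their levels are descriptions here. The organoids are aggregates grown from an embryonic stem cell line, Atoh1-nGFP-ESC, which carries a nuclear GFP reporter of Atoh1, the factor that starts hair cell formation. One library was made from organoids at day 16, another at day 20, and a pair at day 21, of which one holds the GFP high and the other the GFP low fraction. All 4 share the line and its reporter. Per the labels the cells were sorted on GFP, and the labels name no gate for days 16 and 20. The labels do not say how many organoids or cultures went into a library, so nothing measured here separates a day or a gate from a single library.

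Lhx9 encodes a LIM-homeodomain transcription factor, a DNA-binding protein that works with LIM-domain cofactors such as Ldb1 and the Lmo proteins. In the embryonic mouse spinal cord it is known, with its close relative Lhx2 and with Barhl1, Barhl2 and Pou4f1, from the dI1 interneurons that arise from Atoh1-expressing progenitors. It is also made in other parts of the nervous system, among them the developing thalamus and midbrain. Neurons take up their address along the body axis through Hox genes, which are expressed from the hindbrain backwards, while En1, En2 and Otx2 mark more anterior territories. Tcf7l2 and Lef1 belong to the family of DNA-binding proteins through which Wnt signals reach their target genes.

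The promoters of 4 regulators on which the results turn are shown from RefSeq (GRCm38.p6), each from 250 bases before to 50 bases after the most upstream listed start. Lhx9 defines the cells, Tcf7l2 and Lef1 were among the genes highest in them, and Barhl2 is the dI1 factor that differed most between days. Capitals mark the core of homeodomain sites, TAAT, and the core shared by TCF/LEF and other HMG-box factors, CTTTG, each searched on both strands.
Lhx9 promoter: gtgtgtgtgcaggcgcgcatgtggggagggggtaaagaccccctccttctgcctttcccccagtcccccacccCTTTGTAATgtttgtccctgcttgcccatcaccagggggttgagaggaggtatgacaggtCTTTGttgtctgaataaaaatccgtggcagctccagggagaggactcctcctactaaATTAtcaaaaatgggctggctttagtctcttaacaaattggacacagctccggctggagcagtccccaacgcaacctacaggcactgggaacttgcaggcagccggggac
Tcf7l2 promoter: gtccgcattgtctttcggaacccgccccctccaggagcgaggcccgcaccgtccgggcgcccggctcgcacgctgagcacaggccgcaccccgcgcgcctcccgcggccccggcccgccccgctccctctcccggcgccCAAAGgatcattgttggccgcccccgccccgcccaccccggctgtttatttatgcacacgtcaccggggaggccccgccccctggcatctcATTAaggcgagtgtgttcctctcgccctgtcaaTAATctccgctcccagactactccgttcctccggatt
Lef1 promoter: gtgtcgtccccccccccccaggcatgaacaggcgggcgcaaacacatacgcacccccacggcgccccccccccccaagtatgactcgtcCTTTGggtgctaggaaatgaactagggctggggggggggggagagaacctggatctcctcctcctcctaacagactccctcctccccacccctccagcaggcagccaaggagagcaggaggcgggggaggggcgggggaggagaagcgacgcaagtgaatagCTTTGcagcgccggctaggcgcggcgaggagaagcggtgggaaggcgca
Barhl2 promoter: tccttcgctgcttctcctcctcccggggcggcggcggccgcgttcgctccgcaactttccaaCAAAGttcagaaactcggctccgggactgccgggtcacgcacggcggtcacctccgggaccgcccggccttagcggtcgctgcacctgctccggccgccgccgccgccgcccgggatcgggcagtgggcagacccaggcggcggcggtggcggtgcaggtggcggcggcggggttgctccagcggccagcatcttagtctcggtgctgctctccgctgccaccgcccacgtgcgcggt
The Lhx9 window lies at chr1:138842395-138842694 on the minus strand and the Tcf7l2 window at chr19:55741560-55741859 on the plus strand. The Lef1 window lies at chr3:131110047-131110346 on the plus strand and the Barhl2 window at chr5:106458117-106458416 on the minus strand. Lhx9 held 2 matches to each core, and 1 pair of them is adjacent, at 177 and 172 bases before the start. Tcf7l2 held 2 matches to TAAT and 1 to CTTTG, while Lef1 held 2 and Barhl2 held 1 match to CTTTG alone. Such short cores are common: 58.0% of 32851 promoter windows of this length held TAAT and 53.9% held CTTTG, so the matches are only a description of these letters.

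Lhx9-positive neurons made up smaller shares of the later libraries. They were 172 of 1173 gated neurons at day 16, or 14.7% (exact Clopper-Pearson 95% interval 12.7 to 16.8%). At day 20 they were 47 of 623, or 7.54% (5.60 to 9.91%). In the day 21 fractions they were 2 of 199 gated neurons for GFP high, or 1.01% (0.122 to 3.58%), and 27 of 950 for GFP low, or 2.84% (1.88 to 4.11%). The day 16 and day 20 intervals overlap neither each other nor those of the day 21 libraries, while the GFP high and GFP low intervals overlap. Out of all kept barcodes, members made up 4.92% of the day 16 library, 1.03% of day 20, 0.0564% of GFP high and 0.706% of GFP low. The intervals cover counting error only, and each share is also set by the GFP sort and by the depth that a minimum of 2 UMIs needs. With every barcode thinned to 5000 UMIs before the rule was applied, the share of gated neurons was 13.9% of day 16, 4.38% of day 20, 0.513% of GFP high and 1.46% of GFP low neurons.

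**Figure D1:**
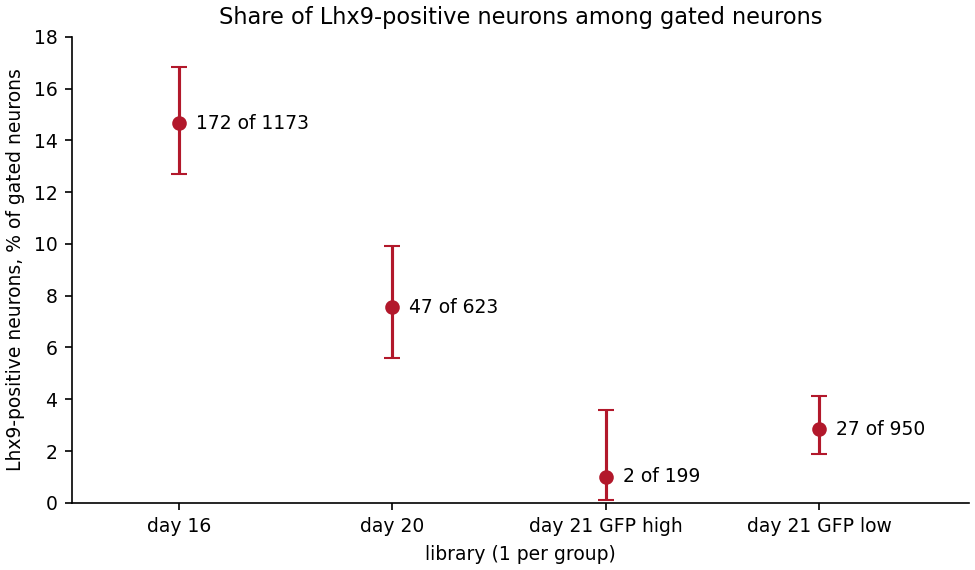
Share of Lhx9-positive neurons among gated neurons (y axis, percent) in each of the 4 libraries (x axis). Points are the share, bars its exact Clopper-Pearson 95% interval, and the numbers give members of gated neurons: day 16 stands at 14.7%, day 20 at 7.54%, GFP high at 1.01% and GFP low at 2.84%.

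The libraries held 3844 to 5619 barcodes, of which 3496 to 4553 were kept, with 45954382 to 113244855 UMIs. Members had a median of 16168.5 UMIs at day 16 and 15672 at day 20, against 17117 and 11602 in other gated neurons. In GFP low the median was 19910 UMIs in members, against 23128 in other gated neurons. The median mitochondrial share was 3.09%, 1.60% and 4.0% in members of day 16, day 20 and GFP low, against 3.15%, 1.61% and 3.58% in other gated neurons. No 2 libraries shared a member barcode, and pairs of libraries shared 1 to 8 kept barcodes. A doublet caller marked 5 of 172, 3 of 47, 0 of 2 and 1 of 27 members, and they were kept unless stated.

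Members were chosen on Lhx9 UMIs, so their share of this transcript follows in part from the rule and is a description. Of the Lhx9 UMIs of kept barcodes, members held 51.2% in the day 16 library and 58.2% for day 20. They held 44.1% for GFP high and 65.6% for GFP low. Kept barcodes outside the neuron gate held 22.4% at day 16, 23.2% at day 20 and 12.4% in GFP low. In GFP high these barcodes held 17 Lhx9 UMIs, more than the 15 in the 2 members. The median member had 9 Lhx9 UMIs at day 16 and 4 at day 20 and in GFP low, and the highest had 77. Summed over members, Lhx9 stood at 694, 314, 370 and 365 CPM, in the order day 16, day 20, GFP high, GFP low, against 56.1, 9.81, 0.424 and 3.24 CPM in other gated neurons. A further 55 gated neurons at day 16, 11 at day 20 and 7 in GFP low had 2 or more Lhx9 UMIs but failed another limit, in 42, 11 and 6 of them the one on Neurod1. Just inside the minimum, 16 members of day 16 had exactly 2 Lhx9 UMIs, with a median of 238 CPM of Lhx9. Just outside it, 30 cells had 1 UMI, with a median of 161 CPM. Over the day 16 gated neurons that pass the other limits, Tcf7l2 stood at 11 CPM in cells with 0 Lhx9 UMIs, 54.2 CPM with 1, 185 CPM with 2 and 587 CPM with 3 or more. At day 20 it stood at 13.5, 156, 183 and 274 CPM in the same order, so its levels just outside and just inside the minimum lay close. The other genes measured lay further apart in these day 20 cells. With 1 and with 2 Lhx9 UMIs, Lhx2 stood at 0 and 233 CPM and Tac1 at 4.73 and 58.1 CPM. Slc17a6 stood at 118 and 208 CPM and Lhx1 at 33.1 and 0 CPM. In GFP low Tcf7l2 stood at 6.23, 197, 0 and 258 CPM, with 8 cells at 1 UMI and 5 at 2, and the values did not follow the order.

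Of the markers given for these cells, Hoxb8 went against the data. Tubb3 and Stmn2, structural genes of neurons used in the gate, had a UMI in every member. Barhl1 had a UMI in 31.4% of members at day 16, 34.0% at day 20 and 22.2% in GFP low. Hoxb8, a marker of trunk and posterior position, had a UMI in only 2 of 248 members. All 39 Hox genes together summed to 4.93 CPM in members of day 16, 42.2 CPM in those of day 20 and 4.83 CPM in those of GFP low, against 17.6, 89.3 and 564 CPM in other gated neurons. The day 20 sum came from 2 of 47 members. At an equal 5000 UMIs per cell, 0 of 27 members of GFP low had a Hox UMI, with an exact upper 95% bound of 12.8%, against 41.6% of other gated neurons (38.3 to 44.9%). At day 16 the thinned shares were 3.45% in members and 2.65% in other gated neurons, and at day 20 4.88% and 7.25%, with overlapping intervals. Of the 5 Hox genes with counts enough to test, Hoxb2 was lower in members (log2 fold change -2.72 ± 0.62 (SE), edgeR adjusted p = 0.0479), and it no longer passed without the GFP low library (adjusted p = 0.433). Among other settings, the call was lost in DESeq2 (adjusted p = 0.0651) and without called doublets (edgeR adjusted p = 0.0774). It was also lost with a minimum of 3 Lhx9 UMIs (edgeR adjusted p = 0.0539) and against gated neurons that fail on Lhx9 alone (0.148). The name used here, Lhx9-positive neurons, states the rule only.

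**Figure D2:**
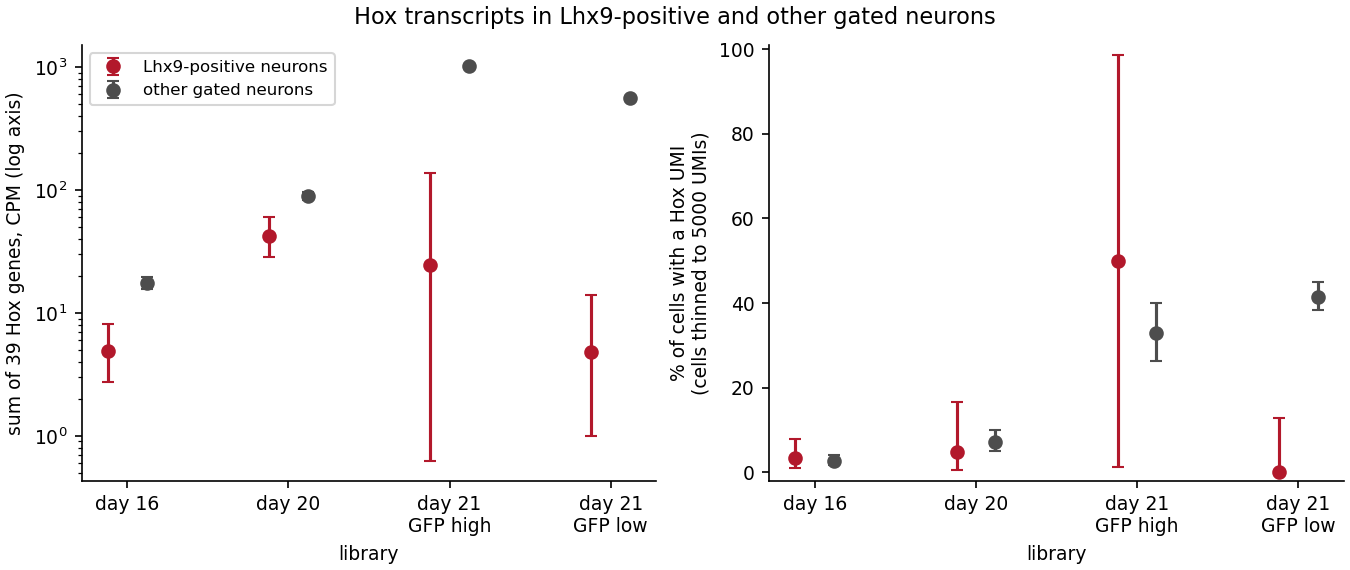
Sum of 39 Hox genes in CPM on a log axis (left) and percent of cells with any Hox UMI after thinning to 5000 UMIs (right), by library, for Lhx9-positive neurons (red) and other gated neurons (grey). Bars are exact 95% counting intervals. In GFP low the sum was 4.83 CPM in Lhx9-positive neurons and 564 CPM in other gated neurons, and GFP high holds only 2 members.

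None of the 6 fore- and midbrain genes tested passed in the class comparison described below. En1, a midbrain and anterior hindbrain factor, stood at 53.9, 58.5 and 58.0 CPM in members of day 16, day 20 and GFP low, against 70.1, 46.9 and 36.1 CPM in other gated neurons. Otx2, made in forebrain and midbrain, stood at 22.4, 8.17 and 30.6 CPM in members, against 29.7, 10.7 and 4.13 CPM in other gated neurons. The labels call the cells of every library otic lineage. The 13 supporting cell and otic genes measured summed to 67.4, 87.1 and 90.2 CPM in members of day 16, day 20 and GFP low, against 91.1, 117 and 252 CPM in other gated neurons. In members Otogl, Tectb and Tecta of that list had no UMI in these libraries, while Sparcl1 stood at 37.5, 73.5 and 38.6 CPM in members, against 37.3, 59.0 and 53.8 CPM in other gated neurons. The hair cell genes Gfi1, Ocm, Chrna9 and Chrna10 had no UMI in members of the 3 libraries. The 20 hair cell genes summed to 185, 317 and 1203 CPM in members of those libraries, against 378, 343 and 785 CPM in other gated neurons, and 61.6% of the GFP low members' sum came from 1 cell. The 11 mesenchyme genes summed to 727, 1092 and 19.3 CPM in members, against 608, 755 and 64.8 CPM in other gated neurons, and 55.2% of the day 20 members' sum came from 1 cell.

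The main comparison set the summed counts of members against those of other gated neurons in the 3 libraries with at least 20 cells in each class, with the library as a block. Of 12751 genes tested, 211 rose in Lhx9-positive neurons (1.65%) and 205 fell (1.61%) at an adjusted p under 0.05 in edgeR's quasi-likelihood test. The median log2 fold change of all genes was -0.03. The limits on Neurod1, Otp and Slc32a1 remove whole groups of neurons from the members, so genes that follow those 3 differ partly by construction. A narrower comparison therefore used only gated neurons that fail on Lhx9 alone. In it 73 of 11704 genes rose (0.624%) and 66 fell (0.564%), and those neurons had a median of 9178 UMIs at day 16, 8876 at day 20 and 22483 in GFP low, below the members at days 16 and 20 and above them in GFP low. Of its higher genes 69 were also higher in the main comparison, which is 94.5% of the 73 and 32.7% of the 211. Of its lower genes 52 were shared, which is 78.8% of the 66 and 25.4% of the 205. Leaving out the day 20 library gave 136 genes higher, and leaving out GFP low gave 393 lower. Without the library block, 12 genes were higher and 16 lower, and Tcf7l2 did not pass (adjusted p = 0.0756). The replicates are 3 libraries that differ in day and gate, and the members were chosen with these data in view.

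Tcf7l2 and Lef1 rose in members. Tcf7l2 reached 558, 259 and 206 CPM in members of day 16, day 20 and GFP low, against 47.8, 16.6 and 7.71 CPM in other gated neurons. Members were higher in every library, by a log2 fold change of 4.07 ± 0.21 (SE, edgeR adjusted p = 2.34e-05), and by 4.46 against neurons failing on Lhx9 alone (adjusted p = 0.00222). After thinning to 5000 UMIs it was found in 52.4% of day 16 members, 5.55% of other gated neurons and 0.676% of hair-cell-gated cells, whose unthinned median was 33084 UMIs. Mesenchyme-gated cells, which have the gene too, showed it in 24.6%. The median member had 162 CPM of Tcf7l2 at day 16, but 0 CPM at day 20 and in GFP low. Without thinning, 15 of 47 day 20 members had a Tcf7l2 UMI, and 1 cell held 19.5% of these UMIs. Lef1 stood at 81.2, 47.6 and 37.0 CPM in members, against 14.0, 3.31 and 1.23 CPM in other gated neurons (log2 fold change 3.48 ± 0.39, edgeR adjusted p = 0.0014). Neither gene's groups overlap across the 3 libraries. Of the same family, Tcf7l1 did not pass, at 3.29, 1.36 and 1.61 CPM in members, against 5.42, 2.12 and 3.15 CPM in other gated neurons (adjusted p = 0.67), and Tcf7 was not among the genes tested. Tcf7l1 was looked up after the values of the others were seen.

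Of the 12 genes on the dI1 list, Lhx2, Barhl2, Pou4f1 and Slc17a6 rose and Robo3, Nhlh1 and Nhlh2 fell in Lhx9-positive neurons, with a median log2 fold change of 0.79 over the list. Against neurons failing on Lhx9 alone, 1 gene of the list rose and 2 fell. Lhx2, the close relative of Lhx9, stood at 324, 132 and 404 CPM in members of day 16, day 20 and GFP low, against 198, 41.4 and 158 CPM in other gated neurons (log2 fold change 1.24 ± 0.17, edgeR adjusted p = 0.00343). The highest of the other neurons, at day 16, lay above the day 20 members, so the groups overlap between libraries though members were higher within each. Lhx2 did not pass against neurons failing on Lhx9 alone (adjusted p = 0.161). Barhl2, a homeodomain factor of the Bar family, stood at 126, 8.17 and 61.2 CPM in members, against 13.2, 6.23 and 2.68 CPM in other gated neurons (3.18 ± 0.50, adjusted p = 0.00828). At day 20 the Barhl2 levels of members and other neurons lay close together, and the call was lost without the day 16 library (adjusted p = 0.0673) and in DESeq2 (adjusted p = 0.0883). Its relative Barhl1 stood at 86.8, 77.6 and 93.4 CPM in members, against 11, 39.6 and 0.639 CPM in other gated neurons. Barhl1 did not pass (3.20 ± 0.78, edgeR adjusted p = 0.065), and at day 20 40.4% of its UMIs in members came from 1 cell. Pou4f1, a POU-domain factor of sensory and dorsal neurons, stood at 226, 17.7 and 41.9 CPM in members, against 29.8, 2.78 and 22.4 CPM in other gated neurons (2.28 ± 0.36, adjusted p = 0.00838). It did not pass without day 16 (adjusted p = 0.0815) or against neurons failing on Lhx9 alone (adjusted p = 0.261).

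A long non-coding RNA near Barhl2 was among the 12 highest genes. Gm28050 ends 42.7 kb upstream of Barhl2, on the same strand of chromosome 5, at chr5:106500894-106574718 (GRCm38, GENCODE M21). Its level was 68.1, 28.6 and 59.6 CPM in members, against 11.2, 17.9 and 8.90 CPM in other gated neurons (log2 fold change 2.17 ± 0.35, edgeR adjusted p = 0.00959). Lmo3, a LIM-only partner of LIM-homeodomain complexes, stood at 148, 109 and 130 CPM in members, against 26.2, 25.8 and 44.2 CPM in other gated neurons (2.11 ± 0.19, adjusted p = 0.00042). Of 18 LIM-homeodomain and cofactor genes tested, Ldb2, Lmo1, Lmo3 and Lhx2 rose, and Isl1, Lhx1, Lhx5 and Lmx1b fell, and against neurons failing on Lhx9 alone 1 rose and 3 fell.

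**Figure D3:**
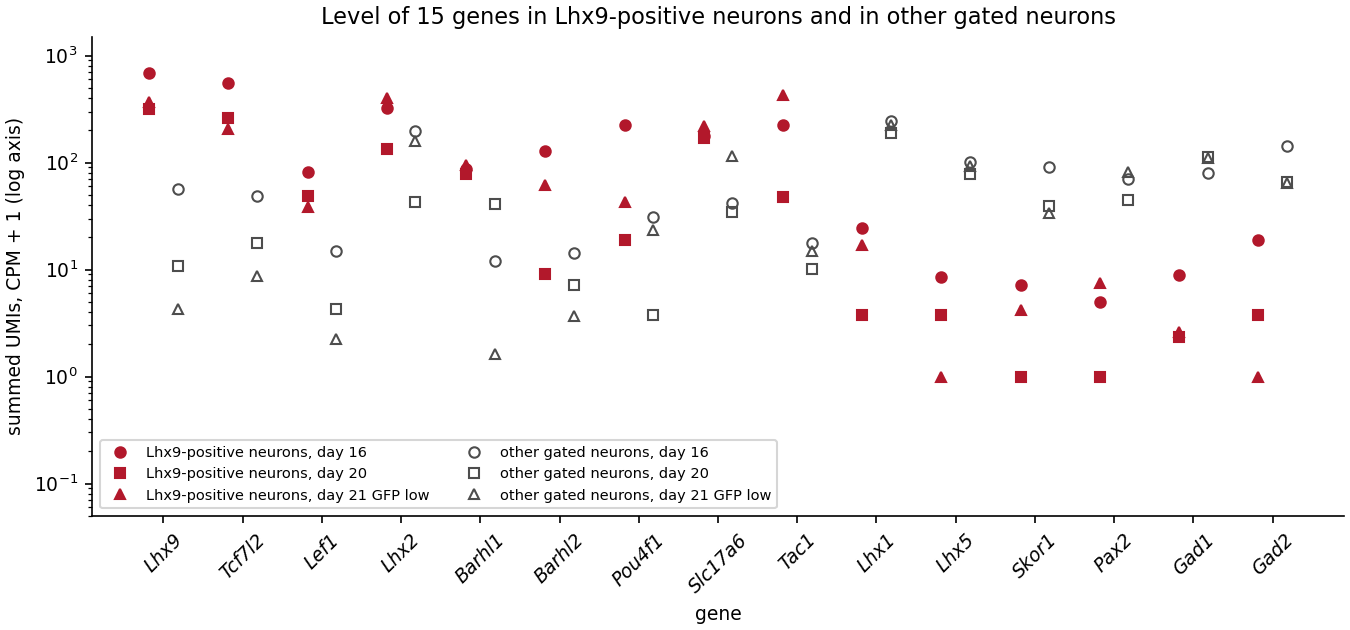
Summed level, as CPM + 1 on a log axis, of 15 genes in Lhx9-positive neurons (filled red, left of each pair) and other gated neurons (open grey) in the day 16, day 20 and day 21 GFP low libraries. Lhx9 chose the cells. Tcf7l2 stood at 206 to 558 CPM in Lhx9-positive neurons and at 7.71 to 47.8 CPM in other gated neurons, while Lhx1 stood at 2.72 to 23.7 CPM and at 188 to 244 CPM.

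Factors of other dorsal interneuron classes were low in members. Of 13 tested none rose and 11 fell, with a median log2 fold change of -3.86 over the list, against -0.03 over all genes. Against neurons failing on Lhx9 alone, 7 fell and none rose. Lhx1, a LIM-homeodomain factor of several dorsal and ventral interneuron classes, stood at 23.7, 2.72 and 16.1 CPM in members of day 16, day 20 and GFP low, against 244, 188 and 226 CPM in other gated neurons (-3.76 ± 0.28, edgeR adjusted p = 0.000179). Its relative Lhx5 stood at 7.56, 2.72 and 0 CPM in members, against 101.3, 76.6 and 91.0 CPM in other gated neurons (-4.17 ± 0.34, adjusted p = 0.000332). Skor1, a corepressor of dorsal interneurons, stood at 6.25, 0 and 3.22 CPM in members, against 89.1, 38.3 and 32.7 CPM in other gated neurons (-3.93 ± 0.34, adjusted p = 0.000353). Pax2, a paired-box factor of inhibitory neurons, stood at 3.95, 0 and 6.44 CPM in members, against 69.5, 44.0 and 80.3 CPM in other gated neurons (-4.17 ± 0.32, adjusted p = 0.000252). Pax2 did not pass against neurons failing on Lhx9 alone (adjusted p = 0.147). Isl1, Tlx3, Prrxl1, Lmx1b, Phox2a and Bhlhe22 also fell. None of 8 ventral interneuron and motor neuron genes passed in either direction, and of 12 sensory ganglion genes 5 fell, among them Isl1, Prph, Neurog1 and Tlx3, and none rose, with 3 falling against neurons failing on Lhx9 alone.

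Among transmitter genes, 2 of 13 glutamate genes rose and none fell, and 4 of 11 inhibitory genes fell and 1 rose. Slc17a6, the vesicular glutamate transporter VGLUT2, stood at 175, 169 and 221 CPM in members of day 16, day 20 and GFP low, against 41.3, 33.4 and 115 CPM in other gated neurons (log2 fold change 1.82 ± 0.23, edgeR adjusted p = 0.00269). All 3 member sums lay above all 3 of the other neurons. It did not pass against neurons failing on Lhx9 alone (1.29, adjusted p = 0.114). Thinned to 5000 UMIs, 49.7% of day 16 members had a Slc17a6 UMI, against 12.8% of other gated neurons and 6.76% of hair-cell-gated cells. Grm5, the metabotropic glutamate receptor mGluR5, stood at 27.0, 99.4 and 96.6 CPM in members, against 9.55, 18.3 and 21.9 CPM in other gated neurons (2.05 ± 0.21, adjusted p = 0.000773), and no other of the 13 glutamate genes passed. Gad1, which makes GABA, stood at 7.89, 1.36 and 1.61 CPM in members, against 79.1, 113 and 108 CPM in other gated neurons (-4.04 ± 0.36, adjusted p = 0.00042). The second GABA-making enzyme, Gad2, stood at 17.8, 2.72 and 0 CPM in members, against 141, 65.5 and 63.0 CPM in other gated neurons (-3.40 ± 0.34, adjusted p = 0.000773). Both Gad genes also fell against neurons failing on Lhx9 alone, which share the limit on Slc32a1 (adjusted p = 0.012 for Gad1 and 0.0114 for Gad2). Slc6a5, a glycine transporter, fell as well. Maoa, which breaks down monoamines, was the 1 gene of 4 on the monoamine and acetylcholine list that rose (edgeR adjusted p = 0.042). It did not pass against neurons failing on Lhx9 alone (edgeR adjusted p = 0.195) or with a minimum of 1 Lhx9 UMI (0.0651). The call was also lost without day 16 (edgeR adjusted p = 0.0792) and without day 20 (0.199).

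Of 16 neuropeptide genes, 5 rose and 2 fell, and against neurons failing on Lhx9 alone 2 rose and 1 fell. Tac1, the precursor of substance P, stood at 225, 46.3 and 431 CPM in members of day 16, day 20 and GFP low, against 16.9, 9.01 and 14.1 CPM in other gated neurons (log2 fold change 3.93 ± 0.38, edgeR adjusted p = 0.000642). A single cell held 85.4% of the GFP low UMIs, and without it the GFP low level was 64.2 CPM. Sst, somatostatin, stood at 342, 182 and 773 CPM in members, against 109, 123 and 198 CPM in other gated neurons (1.48 ± 0.22, adjusted p = 0.0063), and 1 cell held 58.5% of the day 16 and 57.5% of the day 20 UMIs, and 45.8% of those of GFP low. Adcyap1, Vgf and Pcsk1n also rose. Npy, neuropeptide Y, stood at 0, 1.36 and 0 CPM in members, against 19.6, 6.63 and 79.2 CPM in other gated neurons (adjusted p = 0.00109), and DESeq2 did not call it (adjusted p = 0.0528). Npy and Nxph4 were the genes that fell. Other leading genes of members were Tafa1, a small secreted protein of the nervous system, at 53.9, 28.6 and 105 CPM in members, against 9.24, 3.71 and 8.39 CPM in other gated neurons (3.07 ± 0.26, adjusted p = 0.000353), and Hs3st4, which sulfates heparan sulfate, at 56.9, 43.6 and 62.8 CPM in members, against 7.74, 6.89 and 6.30 CPM in other gated neurons (3.0 ± 0.22, adjusted p = 0.000179). Rit2, a neuronal Ras-like GTPase, stood at 41.1, 129 and 82.1 CPM in members, against 8.57, 27.8 and 16.5 CPM in other gated neurons (2.30 ± 0.16, adjusted p = 0.00012). Cpne5, a calcium-dependent membrane-binding protein, completed the list at 49.3, 87.1 and 78.9 CPM in members, against 13.4, 14.2 and 17.8 CPM in other gated neurons. Genes that other neurons made and members nearly lacked were Actc1, a muscle-type actin, at 0.329, 0 and 0 CPM in members, against 94.0, 27.3 and 39.3 CPM in other gated neurons, and Pcp2, a Purkinje cell protein, at 0.329, 2.72 and 0 CPM in members, against 20.9, 242 and 30.8 CPM in other gated neurons. Spp1, Lamp5, Pnoc and Ppp1r14a were the others of the 10 lowest. Against neurons failing on Lhx9 alone Actc1 was not among the genes tested, and Pcp2 and Spp1 passed. Lamp5 (edgeR adjusted p = 0.0818), Pnoc (adjusted p = 0.0515) and Ppp1r14a (adjusted p = 0.138) did not pass there. With a minimum of 1 Lhx9 UMI Spp1 did not pass either (-0.71, edgeR adjusted p = 0.881).

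Axon guidance receptors moved in both directions, with 4 of 32 higher and 6 lower, or 2 and 2 against neurons failing on Lhx9 alone. Ephb1, an ephrin receptor, stood at 99.6, 73.5 and 74.1 CPM in members of day 16, day 20 and GFP low, against 29.4, 25.3 and 51.2 CPM in other gated neurons (log2 fold change 1.36 ± 0.23, edgeR adjusted p = 0.0108). Dscam, Unc5d and Ncam1 rose too. Robo3, which lets commissural axons cross the midline, stood at 15.1, 0 and 1.61 CPM in members, against 70.9, 31.9 and 76.8 CPM in other gated neurons (-2.87 ± 0.42, adjusted p = 0.00575). The netrin receptor Unc5c stood at 14.8, 6.81 and 11.3 CPM in members, against 79.2, 70.7 and 38.8 CPM in other gated neurons (-2.45 ± 0.25, adjusted p = 0.000773). Epha5 stood at 29.3, 39.5 and 32.2 CPM in members, against 165, 127 and 134 CPM in other gated neurons (-2.11 ± 0.18, adjusted p = 0.000353). In the main comparison Epha3, Epha4 and Epha7 fell with it, while Ephb1 rose. Robo3, Unc5c and Epha3 did not pass against neurons failing on Lhx9 alone (edgeR adjusted p = 0.0503, 0.0635 and 0.0593), and Epha5 did (0.0141). The Epha3 call was also lost without day 16 (edgeR adjusted p = 0.153). Of 24 guidance ligands Efnb3 and Nell2 rose and none fell, and Nell2 did not pass in the narrower comparison (adjusted p = 0.415).

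None of the 16 pan-neuronal genes passed against neurons failing on Lhx9 alone. In the main comparison Gap43, Mapt and Nsg2 rose, by log2 fold changes of 0.64, 0.60 and 0.52, and the neurofilaments Nefm and Nefl fell, by 2.07 and 0.89 on the log2 scale. Nefm stood at 144, 79.0 and 111 CPM in members of day 16, day 20 and GFP low, against 290, 583 and 758 CPM in other gated neurons. With a minimum of 1 Lhx9 UMI neither neurofilament passed, Nefm at -1.15 (adjusted p = 0.209) and Nefl at -0.18 (adjusted p = 0.886). Of 19 presynaptic genes Syt4, a synaptotagmin, rose, at 729, 369 and 604 CPM in members, against 118, 219 and 193 CPM in other gated neurons (1.74 ± 0.28, edgeR adjusted p = 0.0094), while Nrxn3 and Cplx1 fell. Syt4 (adjusted p = 0.0705) and Nrxn3 (adjusted p = 0.301) did not pass against neurons failing on Lhx9 alone, and Cplx1 did. Among 20 voltage-gated channel genes 2 rose, Kcnd2 and Cacna2d1, and 1 fell, and neither Kcnd2 (adjusted p = 0.169) nor Cacna2d1 (adjusted p = 0.0615) passed in the narrower comparison. Among 18 cadherin genes Pcdh17 rose, there too (adjusted p = 0.0175). Pcdh9 fell (adjusted p = 0.0451), and the call was lost in 9 alternatives, among them DESeq2 (adjusted p = 0.0583), without called doublets (adjusted p = 0.0619), without day 16 (adjusted p = 0.223), with a minimum of 1 Lhx9 UMI (adjusted p = 0.463) and against neurons failing on Lhx9 alone (adjusted p = 0.142). Zfhx3, a large zinc-finger homeobox factor, stood at 926, 384 and 515 CPM in members, against 304, 99.9 and 363 CPM in other gated neurons (1.39 ± 0.22, adjusted p = 0.00865), and Nfia, Nfib, Prdm8 and Bcl11a of the same list of 25 fell. Zfhx3 did not pass against neurons failing on Lhx9 alone (adjusted p = 0.117), where 1 gene of that list fell and none rose. Of 15 granule cell and rhombic lip genes Mab21l1 rose, in both comparisons, and Zic2 and Etv1 fell. Against neurons failing on Lhx9 alone neither Zic2 (adjusted p = 0.17) nor Etv1 (adjusted p = 0.0601) passed. The Etv1 call was also lost in DESeq2 (adjusted p = 0.0795), without day 16 (adjusted p = 0.279) and with a minimum of 1 Lhx9 UMI (-0.31, adjusted p = 0.91).

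Of 17 maturation genes none rose, and Neurog1, Neurog2, Neurod2, Neurod6, Nhlh1 and Nefl fell. Neurod2 and Neurod6 are relatives of Neurod1, which the rule limits, and 1 maturation gene fell against neurons failing on Lhx9 alone. Of 16 cell cycle genes none rose and 9 fell, and Ube2c, an enzyme of mitotic exit, stood at 1.32, 2.72 and 0 CPM in members, against 40.9, 79.1 and 19.8 CPM in other gated neurons (-4.98 ± 0.34, edgeR adjusted p = 0.00012). Against neurons failing on Lhx9 alone 2 of the 9 fell, Ube2c (adjusted p = 0.0256) and Cenpf (adjusted p = 0.0311). With a minimum of 1 Lhx9 UMI neither passed, Ube2c at -1.12 (adjusted p = 0.686) and Cenpf at -1.48 (adjusted p = 0.271), and Top2a did not pass in either setting. The glia and progenitor genes Sox2 and Vim fell, among 12 tested, and Sox2 is also the 1 of 6 supporting cell genes that fell. The calcium buffer Pvalb fell among 12 hair cell genes, and Isl1 and Sox2 fell among 8 Merkel cell genes. Sox2, Vim and Isl1 did not pass against neurons failing on Lhx9 alone (edgeR adjusted p = 0.0524, 0.179 and 0.0753). With a minimum of 1 Lhx9 UMI Isl1 did not pass either (edgeR adjusted p = 0.191). Dcn rose among 10 mesenchyme genes, but did not pass without called doublets (adjusted p = 0.908). None of 8 epidermal, 14 immediate-early and dissociation genes or the 1 pluripotency gene tested passed, and none of the 8 blood and endothelium genes had counts enough to test.

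**Figure D4:**
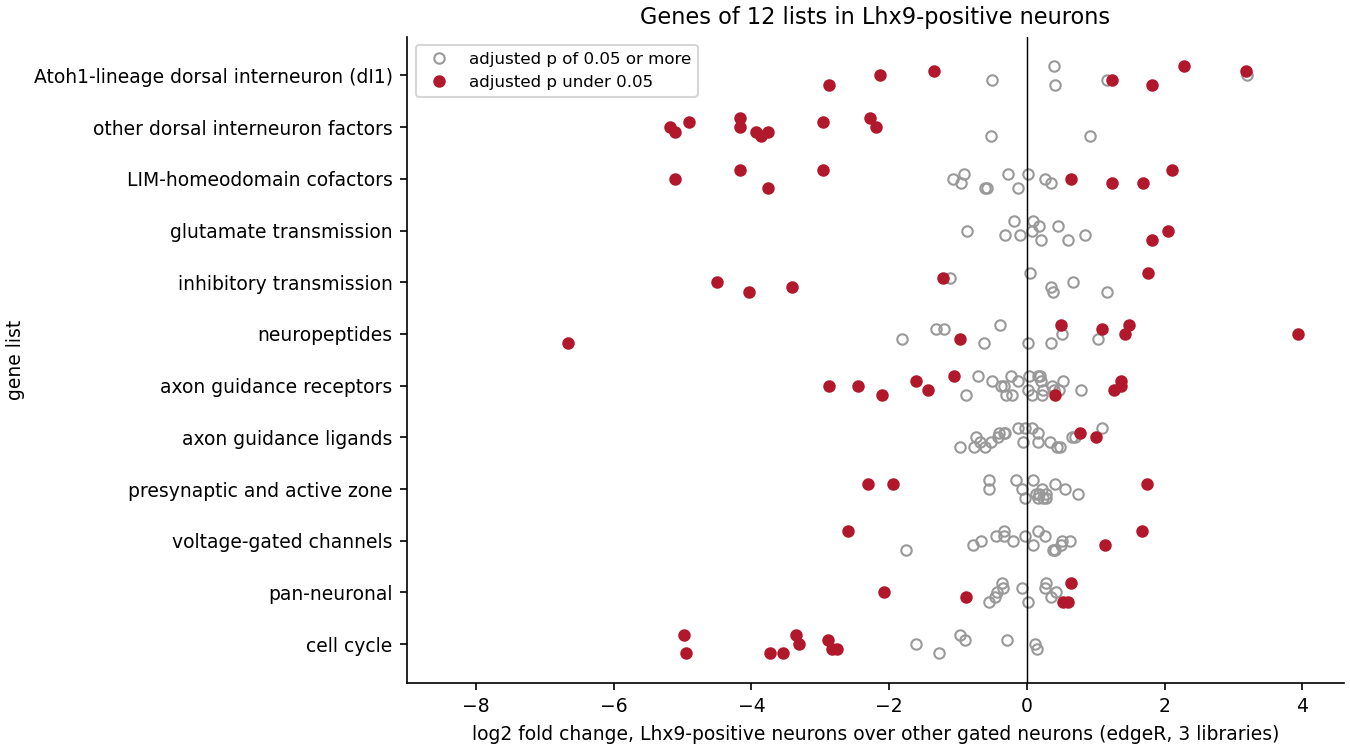
Log2 fold change in edgeR (x axis, Lhx9-positive neurons over other gated neurons, 3 libraries) of each gene tested in 12 lists (y axis), without genes of the rule. Filled points have an adjusted p under 0.05: 11 of 13 factors of other dorsal interneurons and 9 of 16 cell cycle genes were lower, and the dI1 list had 4 higher and 3 lower of 12.

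Members were not uniform. Of the 5 factors Tcf7l2, Lhx2, Barhl1, Barhl2 and Pou4f1, 3 or more had a UMI in 58.1% of members at day 16, 25.5% at day 20 and 29.6% in GFP low, against 6.99%, 1.56% and 1.08% of other gated neurons. None of the 5 was found in 18 of 172 members at day 16, 9 of 47 at day 20 and 4 of 27 in GFP low. Tcf7l2, Barhl2 and Pou4f1 are among the 12 highest genes of the main comparison. The gap between members and other neurons in these shares therefore follows in part from the choice of factors. The shares are not thinned, and members were deeper at day 20 (median 15672 against 11602 UMIs). Among the 145 day 16 members with at least 5000 UMIs, thinned to that depth, Pou4f1 was found in 72.2% of those with Barhl2 (39 of 54) and 28.6% of those without. It was found in 60.5% of members with Tcf7l2 and 27.5% of those without. Barhl1 was found in 27.6% of members with Tcf7l2 and 5.80% of those without. Of 23 members with En1, 4 had Pou4f1, or 17.4%, against 61 of 122 members without En1. Of 11 members with Calb2, a calcium buffer, 1 had Tcf7l2, against 56.0% of members without it. Slc17a6 was found in 59.2% of day 16 members with Lhx2 and 39.1% of those without, but after the same thinning the order was the other way at day 20, with 43.8% of 16 and 60% of 25 members, and in GFP low, with 52.9% of 17 and 70% of 10. Pou4f1 was found at day 20 in 1 of 13 members with Tcf7l2 and 3 of 28 without, and in GFP low in 2 of 5 and 2 of 22. These shares rest on few cells outside day 16, and free transcripts and remaining differences between cells enter them.

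Among the genes whose CPM followed Barhl1 most closely over members, within libraries, were Tcf7l2 (mean Spearman correlation 0.36), Bcl11b (0.34), Jmjd6 (0.27), Mir124-2hg (0.26) and Sox4 (0.25), over members that share their libraries' depth. The values are low and are a description. With 2 members positive, no such ranking was made for Hoxb8.

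Between days, members of day 20 were set against members of day 16, with 1 library each and therefore no test. A gene was called by size, at a CPM ratio of 2 or more either way with an exact counting interval that leaves out 1. Of 9187 genes at 10 CPM or more, 598 were called higher at day 20 (6.51%) and 725 lower (7.89%), against 2.66% and 3.82% of 9317 genes in other gated neurons. Leaving out, for each gene and library, the single member with most of its UMIs gave 380 called higher. The day 20 sum rests on 47 cells and the day 16 sum on 172. A single cell is therefore a larger part of day 20, and this step is not even between the 2 days.

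Of 11 dI1 genes measured, 6 were lower at day 20 and none higher, beside 7.89% and 6.51% of all genes. Tcf7l2, outside that list, was called lower too, at 259 CPM at day 20 and 558 CPM at day 16. Its ratio was 0.46 (0.40 to 0.54), against 0.35 in other gated neurons. Lhx9 itself, a gene of the rule, had a ratio of 0.45. Exactly 2 Lhx9 UMIs were found in 12 of 47 members at day 20 and 16 of 172 at day 16. Barhl2 stood at 8.17 CPM in day 20 members and 126 CPM in day 16 members, a ratio of 0.06 (95% counting interval 0.02 to 0.14), against 0.47 (0.34 to 0.65) in other gated neurons. Pou4f1 stood at 17.7 CPM at day 20 and 226 CPM at day 16, a ratio of 0.08 (0.04 to 0.14), or 0.04 without the top member of each library, and in other gated neurons the ratio was 0.09. Lhx2 stood at 132 CPM at day 20 and 324 CPM at day 16, a ratio of 0.41, against 0.21 in other gated neurons, and Robo3, Dcc and Cntn2 of the same list were lower too. Barhl1, at 77.6 CPM at day 20 and 86.8 CPM at day 16, was not called. Tac1 stood at 46.3 CPM at day 20 and 225 CPM at day 16, a ratio of 0.21 (0.14 to 0.29), against 0.53 in other gated neurons. Of 14 maturation genes 4 were higher (Dll3, Neurod2, Neurod6 and Camk2b) and 3 lower (Dll1, Sox4 and Sox11), with a median log2 ratio of -0.10. Without the top member of each library Neurod2 (ratio 1.98) and Neurod6 (1.51) were not called. A single cell held 52.9% of the day 20 UMIs of Neurod2 and 63.0% of those of Neurod6. Sox11 stood at 629 CPM at day 20 and 1876 CPM at day 16, a ratio of 0.34, against 0.53 in other gated neurons, and Sox4 at 818 CPM at day 20 and 1777 CPM at day 16, a ratio of 0.46, against 0.50 in other gated neurons. Of 22 genes on the list of nuclear and patterning factors, Zfhx3, Zfhx4, Pou3f1, Pou3f2, Pou2f2, Onecut1, Onecut2 and Satb1 were lower and Maf higher. Of 11 granule cell and rhombic lip genes, 5 (Zic1, Cbln1, Etv1, Reln and Mab21l2) were lower. With CPM averaged over cells in place of summed counts, Zic1, Reln and Mab21l2 were not called, at ratios of 0.55, 0.60 and 0.65. Among the 8 lowest named genes were also Uncx, a homeobox factor, at 5.45 CPM at day 20 and 54.6 CPM at day 16, and 4930578M01Rik, at 6.81 CPM at day 20 and 55.2 CPM at day 16.

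Among genes of synapses and excitability, 2 of 19 presynaptic, 2 of 11 glutamate, 3 of 9 inhibitory and 1 of 17 channel genes were called higher at day 20, and 1 inhibitory gene, Gad2, lower. Over all 9187 genes, 6.51% were called higher and 7.89% lower. Whether any of these short lists differed from those shares was not tested. Slc17a6 stood at 169 CPM in day 20 members and 175 CPM in day 16 members and was not called. Grm5 stood at 99.4 CPM at day 20 and 27.0 CPM at day 16, a ratio of 3.69 (2.65 to 5.11), against 1.92 in other gated neurons. Kcnd2, a potassium channel, stood at 62.6 CPM at day 20 and 15.5 CPM at day 16 (4.05, 2.64 to 6.22, against 1.55 in other gated neurons), and Camk2b, a kinase of synapses, at 80.3 CPM at day 20 and 23.3 CPM at day 16 (3.44, 2.39 to 4.93, against 1.60). The receptor subunits Gabra2 at 59.9 CPM at day 20 and 15.1 CPM at day 16 (3.96, 2.56 to 6.12), Glra2 at 32.7 CPM at day 20 and 4.28 CPM at day 16 (7.64, 3.74 to 16.3) and Glrb at 21.8 CPM at day 20 and 5.26 CPM at day 16 (4.14, 1.94 to 8.84) were higher, with ratios of 2.0, 1.64 and 1.83 in other gated neurons. Chl1, an adhesion molecule of axons, stood at 314 CPM at day 20 and 111 CPM at day 16, a ratio of 2.83, against 2.20 in other gated neurons, and Plxnc1, a semaphorin receptor, at 73.5 CPM at day 20 and 27.6 CPM at day 16, a ratio of 2.66, against 1.62. Of 29 guidance receptors 2, these ones, were higher, and 7 were lower, among them Robo1, Unc5b, Epha4 and Ephb2. Calb2, a calcium buffer, stood at 155 CPM at day 20 and 36.8 CPM at day 16, a ratio of 4.21, against 1.29 in other gated neurons. Snap25, of the release machinery, had a ratio of 2.17, or 1.96 without the top member of each library. Mt3, a neuronal metallothionein, stood at 128 CPM at day 20 and 13.5 CPM at day 16 (9.49, 6.51 to 14.1, against 4.30 in other gated neurons) with UMIs in 25 of 47 day 20 members, and Nrgn, a calmodulin-binding protein of dendrites, at 144 CPM at day 20 and 15.5 CPM at day 16, with a ratio of 9.34, or 5.61 without the top member, which held 50.9% of its day 20 UMIs. Whether any of these ratios differed between members and other gated neurons was not tested.

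**Figure D5:**
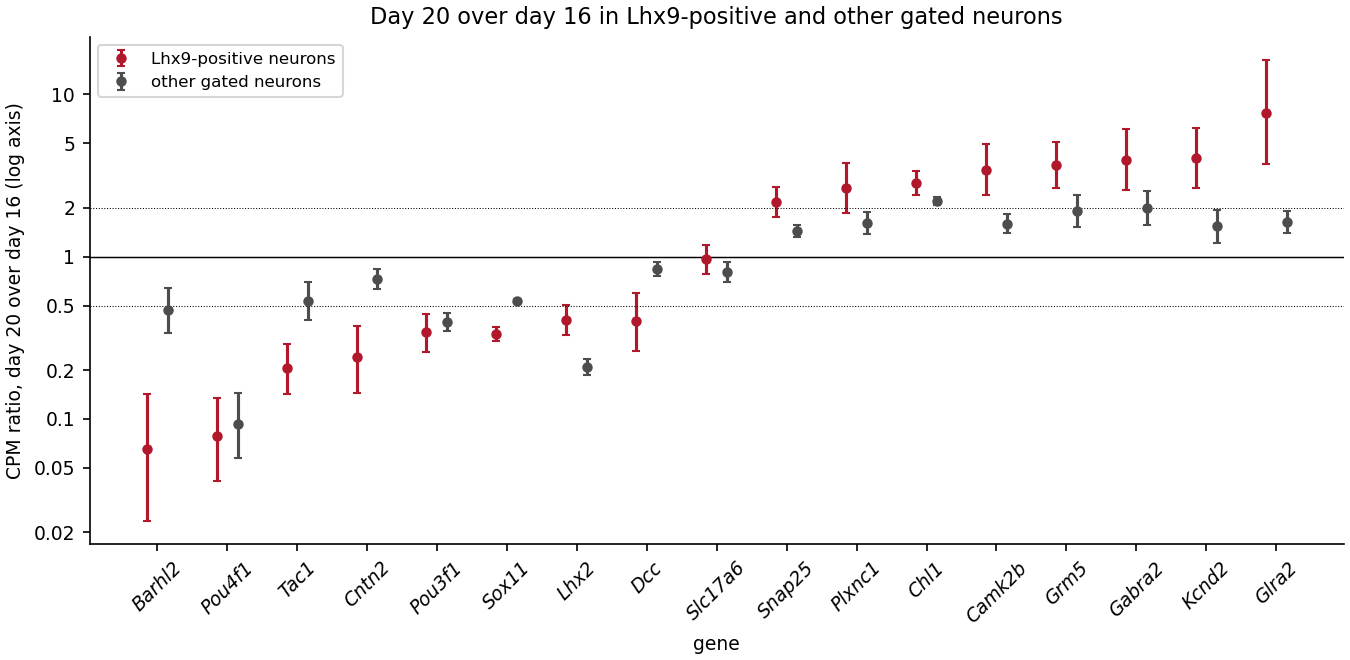
CPM ratio of day 20 over day 16 (log axis) for 17 genes in Lhx9-positive neurons (red, left) and other gated neurons (grey, right). Bars are exact 95% counting intervals and dotted lines mark ratios of 0.5 and 2. Barhl2 has a ratio of 0.06 in Lhx9-positive neurons and 0.47 in other gated neurons, and Grm5 has 3.69 and 1.92.

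Some of the largest ratios came from single cells. The acute-phase and immune genes Hp, Saa3, Lcn2 and Cxcl5 were among the 8 highest, and 1 day 20 member held 100%, 100%, 99.2% and 94.4% of their UMIs. The same member held 85.2% of Dcn, 92.2% of Lum and 62.0% of Igfbp7 UMIs and 199 collagen UMIs, and these 4 genes and Igfbp7 were not called once marked doublets were removed. Grp, gastrin-releasing peptide, stood at 95.3 CPM at day 20 and 3.95 CPM at day 16, and 81.4% of its day 20 UMIs were in 1 cell (ratio 24.1, or 7.87 without the top members). Cartpt and Nts rested on another single member, with 96.7% and 93.3%, and both are among the 9 of 13 neuropeptide genes called higher. At the low end, the keratins Krt17 and Krt5, made in surface epithelia, stood at 0 CPM at day 20, against 102 and 62.5 CPM at day 16, and in other gated neurons the ratios were 0.04 and 0.18. Cstdc5 stood at 0 CPM at day 20 and 52.0 CPM at day 16, and Lgals7, an epithelial galectin, at 20.4 CPM at day 20 and 140 CPM at day 16. One day 16 member held 37.0% of Krt17, 34.2% of Krt5 and 25.6% of Lgals7 UMIs. Of 8 epidermal genes measured, 5 were lower and 2 higher, with a summed level of 92.6 CPM in day 20 members and 178 CPM in day 16 members. The part of other cells' transcripts in these calls was not tested.

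Egfp, the reporter on which the fractions were sorted, summed to 755, 1251 and 1605 CPM in members of day 16, day 20 and GFP low, against 2432, 2278 and 930 CPM in other gated neurons. Without the top cell the GFP low value was 599 CPM in members and 903 CPM in other gated neurons. The median member had 313, 349 and 249 CPM, against 778, 637 and 250 CPM in the median other neuron. Atoh1 itself had 3 UMIs in all day 16 members, none at day 20 and 26 in GFP low, all 26 in 1 cell. The 2 members of GFP high differed from each other. One, with 22052 UMIs, had 781 Egfp, 7 Atoh1, 12 Lhx9, 50 Barhl1 and 4 Slc17a6 UMIs, and the other, with 18514, had 154 Egfp, 3 Lhx9 and 4 Gad1 UMIs and none of Atoh1, Barhl1 or Slc17a6. Neither had a UMI of Tcf7l2, Lhx2, Tac1 or Hoxb8, and neither had one of the hair cell genes Myo7a or Pou4f3. No comparison of the gates was made within Lhx9-positive neurons because GFP high held only these 2 cells.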

How the data were processed

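Single-cell RNA was measured in 4 libraries, 1 per group. The deposited matrices give unnormalized UMI counts of 32289 genes in each barcode, written by Cell Ranger 6.1.2 per the file headers; per the submitters' processing notes Cell Ranger 6.1.0, Seurat 4.0.6 and mm10 were used. The gene annotation is not given in the sources used here, and the labels speak both of nuclei and of cells. Counts were summed per library and class and scaled to CPM. Classes were compared with edgeR 4.0.16 (filterByExpr, TMM, quasi-likelihood, library block, Benjamini-Hochberg) in R 4.3.3, and with DESeq2 1.42.0 as an alternative; the script was tested on simulated data. With 3 libraries, a p-value does not rest on the gene's own spread alone. The quasi-likelihood fit pools the spread of the class difference between these libraries over genes. The blocks pair classes of one library by construction. The value after ±, called SE, is approximate: the absolute log2 fold change divided by the square root of edgeR's F statistic. Between days, ratios carry exact conditional binomial 95% intervals, and shares exact Clopper-Pearson intervals, for counting error only. Scrublet (Scanpy 1.11.5) scores were called at 0.8% per 1000 barcodes. Thinning to 5000 UMIs left out 27 and 6 shallower members at days 16 and 20. Members, the 30 gene lists, tests and rules were chosen with earlier results of these data known. Named genes were the 12 highest and 10 lowest passing genes at 50 CPM or more and of 1 direction in all 3 libraries, the 8 highest and 8 lowest day ratios at 50 CPM and 30 UMIs or more, and up to 4 genes per list at 20 CPM. Other genes named from the lists, Gm28050's neighbour, the factors counted per cell, the co-detected pairs and the top-cell shares were chosen after their values were seen. Alternatives are given at the end. Gene positions come from GENCODE M21 (GRCm38), where 500 of the 501 named or listed genes were found. Some genes counted within the lists are not reported here by name.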

Additional observations from a re-analysis of the deposited data

How the results depend on the processing

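The count of genes higher in Lhx9-positive neurons was 211, and that of genes lower 205. Against gated neurons failing on Lhx9 alone they were 73 and 66, and without a filter on low counts, where more genes are tested, 407 and 614. With no replicate block, that is without pairing the classes by library, they were 12 and 16. Leaving out 1 library in turn gave 136 to 294 genes higher, the lowest without day 20, and 207 to 393 genes lower, the highest without GFP low. DESeq2 called 237 and 171. Over single named genes and these alternatives, 1274 values kept direction and side, 141 lost the call, 53 gained it and 1 turned: Pvalb, at 0.32 (log2) with a minimum of 1 Lhx9 UMI, where the cause was not tested. Leaving out the top member of each library gave 380 genes higher at day 20, an alternative chosen after seeing the data. With a minimum of 1 Lhx9 UMI the share of gated neurons was 17.2% at day 16 and 10.9% at day 20. Without the limits on Neurod1, Otp and Slc32a1 it was 19.4% at day 16, and thinned to 5000 UMIs 4.38% at day 20 and 1.46% in GFP low. The alternatives planned for GFP high over GFP low were not run, with 2 members in GFP high. Depth limits every statement on genes under 10 CPM in the 27 and 47 members of GFP low and day 20.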
